A study of Mus musculus with 4 samples.

Results

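The genes described here are Fn1, which encodes fibronectin, and 7 genes of matricellular and provisional-matrix proteins, Sparc, Thbs1, Thbs2, Spp1, Tnc, Postn and Vcan. They were chosen by symbol, and all 8 were found among the 24421 genes of the deposited table. RNA came from 4T07 cells, a line of murine mammary carcinoma (strain Balb/cfC3H), in 4 libraries of polyadenylated RNA. There were 2 libraries of control cells (CTL) and 2 labelled as overexpressing the homeobox gene Six2 (Six2), all harvested 48 hours after plating with no treatment. The sources used here do not name the vector, the promoter that drives Six2 or whether the lines are clones. They also do not say whether replicates were separate cultures, so a p-value weighs a difference only against library-to-library spread, possibly technical.

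Fibronectin is a large secreted glycoprotein that cells assemble into fibrils through integrin receptors, and it forms the provisional matrix of wounds and tumours. Matricellular proteins sit in that matrix but act mainly on cells: they bind integrins and other receptors, growth factors and proteases, and they are known from wound repair, bone and tumour stroma. In carcinomas many of them are made by fibroblasts and macrophages, and tumour cells can make them too.

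Values are RPKM, read numbers divided by gene length and library size, which allows levels to be compared between genes. Read totals recovered from the RPKM steps lay between 41881864 and 81524250, highest in Six2 replicate 2. Six2 itself had 0 reads in 3 libraries and 3 reads, the fewest that fit its RPKM, in Six2 replicate 1. The labelled overexpression is therefore not visible in these libraries. Directions below compare libraries by these labels, Six2 relative to control. Of the epithelial markers, Krt8 was between 607 and 1059 RPKM and Krt18 between 389 and 799.95 RPKM, whereas Epcam stayed under 1 RPKM in every library. Epcam was lower by value in the libraries labelled Six2, at 0.720 and 0.684 RPKM in control against 0.214 and 0.083 RPKM. The other 2 of the 5 epithelial markers were also lower by value there. Cdh1 was at 14.6 and 8.40 RPKM in control against 0.186 and 0.103 RPKM, and Krt19 at 8.76 and 4.26 RPKM against 0.802 and 0.464 RPKM. Their part in the results below was not tested. Summed over 9 fibroblast markers, the level was 9.92 and 5.28 RPKM in control and 7.45 and 5.19 RPKM in Six2-labelled libraries, most of it Pdgfra, with 8 of the 9 under 1 RPKM and Col3a1, Lum and Thy1 at 0. Over 6 leukocyte and macrophage markers the sum was 12.5 and 7.63 against 9.29 and 5.02 RPKM, most of it Cd68, with 5 of the 6 under 1 RPKM and Adgre1 at 0. All 5 endothelial and all 6 myoepithelial markers were under 1 RPKM. In bulk RNA, fewer cells of a kind and less RNA per cell cannot be told apart.

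Promoter sequence was found in the RefSeq table (GRCm38.p6) for 6 of the 8 genes; Fn1 and Thbs1 had none there. The 250 bases before the start are shown for Sparc, Tnc and Spp1, the 3 tested genes with a sequence there, whose levels were lower, higher and nearly equal in the libraries labelled Six2. For Tnc and Spp1, which have more than 1 listed start, 1 is shown. The starts are those of RefSeq and differ from the GENCODE gene coordinates given below. By those coordinates the Sparc window lies inside the gene, and the Tnc window shown overlaps the 5′ end of Tnc. The other Tnc window, from 64047016, lies directly before that end. They are written 5′ to 3′ on the gene's strand, with matches to any of 7 motifs in capitals.
Sparc, chr11:55420081-55420330, minus strand: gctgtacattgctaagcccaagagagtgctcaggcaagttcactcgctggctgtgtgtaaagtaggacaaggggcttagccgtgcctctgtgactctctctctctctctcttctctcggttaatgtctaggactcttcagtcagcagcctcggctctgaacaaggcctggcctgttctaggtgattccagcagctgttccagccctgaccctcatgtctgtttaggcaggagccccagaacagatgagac
Tnc, chr4:64046937-64047186, minus strand: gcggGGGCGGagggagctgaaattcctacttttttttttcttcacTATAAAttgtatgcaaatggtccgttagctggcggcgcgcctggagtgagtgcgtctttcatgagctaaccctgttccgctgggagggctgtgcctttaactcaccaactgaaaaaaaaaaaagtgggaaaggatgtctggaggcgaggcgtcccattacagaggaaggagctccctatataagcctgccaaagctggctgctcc
Spp1, chr5:104434861-104435110, plus strand: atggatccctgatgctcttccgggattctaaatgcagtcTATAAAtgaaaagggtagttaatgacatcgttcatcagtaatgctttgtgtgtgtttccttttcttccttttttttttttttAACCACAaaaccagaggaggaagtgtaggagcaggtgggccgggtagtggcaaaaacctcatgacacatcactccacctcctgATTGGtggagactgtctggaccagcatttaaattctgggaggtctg

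Both strands were searched for 7 motifs. The AP-1 motif was TGANTCA, which reads alike on both strands. The TATA box was written as TATAAA. For SP1 the letters were GGGCGG and for the CCAAT box they were the name itself. The RUNX motif was searched as AACCACA. The cyclic AMP response element, CRE, was searched as TGACGTCA. TCANGTTNC stood for the motif of the Six2 family. No matches overlapped in the windows shown. The Spp1 window held TATAAA at -211 to -206, the RUNX letters at -129 to -123 and CCAAT on the other strand at -46 to -42, counted back from -1 at the base before the start. The Tnc window held GGGCGG at -246 to -241 and TATAAA at -205 to -200. The Sparc window held none of the 7. Among 32851 promoter windows of the same length, 4.4% held the RUNX letters, 12.4% TATAAA, 33.8% CCAAT, 32.7% GGGCGG, 6.75% AP-1, 1.55% CRE and 2.82% the Six2-family letters. These matches describe the letters only.

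The 8 genes fell into 5 that were expressed and 3 that were near 0. Spp1 was by far the most abundant, followed by Fn1, Sparc, Thbs1 and Tnc, and within each group of libraries the ranges of these 5 did not overlap. Thbs2, Postn and Vcan stayed under 0.2 RPKM in every library, and their ranges over the 4 libraries overlapped. Together the 8 genes took 1.64% and 0.991% of the reads of the control libraries and 1.25% and 0.79% of those labelled Six2. Without Spp1 the shares were 0.686% and 0.438% against 0.305% and 0.234%.

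**Figure D1:**
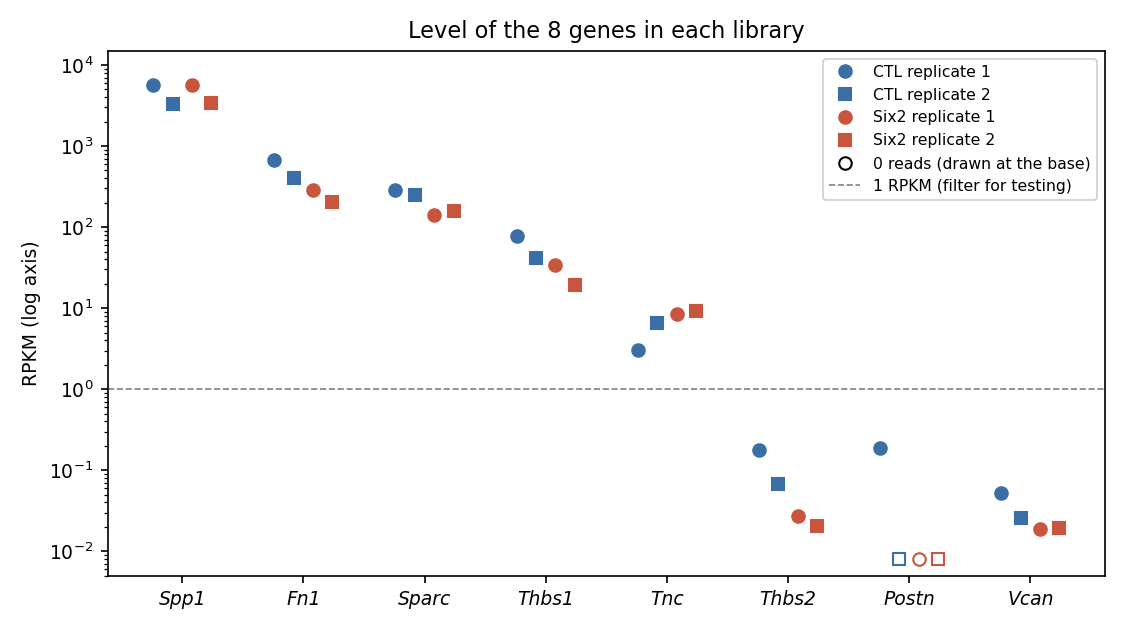
Level of each of the 8 genes in RPKM on a log axis, 1 point per library, with blue for CTL, red for Six2, circles for replicate 1 and squares for replicate 2; open points at the base are libraries with 0 reads. Fn1, Sparc and Thbs1 lie lower in both Six2 libraries than in both CTL libraries, Spp1 differs by replicate number and not by group, and 3 genes lie under the dashed line at 1 RPKM.

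In the libraries labelled Six2 the mean level of Fn1 was 0.459 of that in control, of Sparc 0.562 and of Thbs1 0.442, while Tnc was at 1.83 and Spp1 at 0.995 of control. None of these differences passed the test over all genes. It was limma's two-sided test on log2(RPKM + 1) across 10654 genes, those reaching 1 RPKM in 2 or more libraries, and a call needed a Benjamini-Hochberg adjusted p under 0.05. The filter left 5 of the 8 genes. The test called 0 of them lower and 0 higher, where 0.0845% of all genes tested were called lower and 0.0282% higher. At an unadjusted p under 0.05, 3 of the 5 were lower (9.66% of all genes tested) and 0 higher (7.36%). On whole reads recovered from the RPKM values, limma's voom also called 0 of the 5. Both fits left out the replicate number. Calls changed with it as a block, as given in the closing section. The groups did not overlap for 3 genes that were lower (25.5% of all genes tested) and 1 that was higher (21.9%), or 4 of 5 in either direction (47.4%). The median difference of the 5 was -0.83, beside -0.01 over all genes tested; being chosen with earlier results known, and reduced by the filter to the expressed genes, the 5 give no independent evidence of a direction.

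Fn1 (ENSMUSG00000026193.15, GRCm38 chromosome 1, 71585520 to 71653200, minus strand) was at 666.9 and 407 RPKM in the control libraries and at 287 and 206 RPKM in the libraries labelled Six2. Both Six2-labelled libraries lay under both control libraries, and in each group replicate 2 was the lower. The means were 537 ± 183 and 247 ± 57.1 RPKM (SD, n = 2 per group), a control level 2.18 times the Six2-labelled one. The difference in log2(RPKM + 1), a scale that shrinks changes at low levels, was -1.10 (SE 0.301, 95% interval -1.905 to -0.29, limma adjusted p = 0.204). Among all genes in the table Fn1 ranked 102 and 156 in control and 220 and 317 in Six2-labelled libraries. Its share of reads was 0.562% and 0.343% in control and 0.242% and 0.174% in Six2-labelled libraries.

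The Fn1 value is a sum over the gene. GENCODE lists 17 transcripts of Fn1, 9 of them protein coding, and fibronectin is known for alternative inclusion of extra domains, which a gene total cannot separate. Tested genes of chromosome 1 had a median difference of 0.32, opposite in sign to that of Fn1, and with chromosome medians removed Fn1 differed by -1.41 (adjusted p = 0.213). At the 5′ end of the gene, exons of Fn1 share 292 bases with Apol7d, an antisense gene on the other strand. The strand setting of the counting is unknown here. Apol7d had 1 and 4 reads in control and 8 and 19 reads in Six2-labelled libraries, against 120666 or more for Fn1 in every library.

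Thbs1 (ENSMUSG00000040152.8, chromosome 2, 118111876 to 118127133, plus strand) encodes thrombospondin 1, which binds CD47 and CD36 and can activate latent TGF-beta. It was at 78.3 and 41.4 RPKM in control and 33.8 and 19.1 RPKM in Six2-labelled libraries. The groups did not overlap, but the lower control and the higher Six2-labelled library were close, and replicate 2 was again the lower in each group. The difference was -1.13 on the log2(RPKM + 1) scale (SE 0.417, 95% interval -2.25 to -0.014, limma adjusted p = 0.291). It was -0.68 without control replicate 1 and -0.74 without Six2 replicate 2. Fn1 was 8.52 and 9.83 times Thbs1 in control and 8.49 and 10.8 times Thbs1 in Six2-labelled libraries, in RPKM, so their proportion moved far less than either level.

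Sparc (ENSMUSG00000018593.13, chromosome 11, 55394500 to 55423183, minus strand) encodes osteonectin, a collagen-binding protein that loosens cell adhesion. It was at 287 and 250.2 RPKM in control and at 142 and 160 RPKM in Six2-labelled libraries. Here the replicates of a group were close, and the gap between groups was larger than either spread. The means were 269 ± 26.2 and 151 ± 12.3 RPKM (SD, n = 2 per group), and the difference was -0.83 (SE 0.121, 95% interval -1.15 to -0.50, limma adjusted p = 0.108). Sparc had the smallest standard error of the 5 genes tested. The closest adjusted p to the threshold among the 5 was also that of Sparc.

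Tnc (ENSMUSG00000028364.15, chromosome 4, 63959785 to 64047015, minus strand) encodes tenascin C, a hexameric protein of wounds and tumour stroma that interferes with adhesion to fibronectin. It was at 3.03 and 6.64 RPKM in control and 8.47 and 9.21 RPKM in Six2-labelled libraries. Control replicate 1 was low, while control replicate 2 was nearer to the Six2-labelled libraries than to the other control. The difference was 0.83 (SE 0.33, 95% interval -0.062 to 1.71, limma adjusted p = 0.32). Without control replicate 1 it was 0.36, and without control replicate 2 it was 1.29. In RPKM, Fn1 was 220 and 61.4 times Tnc in control and 33.9 and 22.4 times Tnc in Six2-labelled libraries.

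Spp1 (ENSMUSG00000029304.14, chromosome 5, 104435118 to 104441050, plus strand) encodes osteopontin, a phosphorylated ligand of integrins and CD44. It was at 5743 and 3335 RPKM in control and 5678 and 3355 RPKM in Six2-labelled libraries, which made it gene number 3 or 4 of the table in every library. The same-numbered libraries of the groups were nearly equal, and replicate 1 was 1.72 times replicate 2 in control and 1.69 times replicate 2 in Six2-labelled cells. The difference between groups was -0.004 (SE 0.379, 95% interval -1.02 to 1.02, limma adjusted p = 0.997). A change of up to about 1.02 either way thus lay within the interval of this fit, which leaves out the replicate number. Spp1 was 8.61 and 8.18 times Fn1 in control and 19.8 and 16.3 times Fn1 in Six2-labelled libraries, in RPKM. Osteopontin is also a product of macrophages. Of the 6 leukocyte and macrophage markers, Cd68 was at 12.4 and 7.41 RPKM in control and 9.21 and 4.99 RPKM in Six2-labelled libraries, higher in replicate 1 of each group as Spp1 was. The other 5 were under 1 RPKM in every library, with Adgre1 at 0 and Ptprc at most 0.0043 RPKM. Krt8, Krt18, Fn1 and Thbs1 were also higher in replicate 1 of each group, so that pattern was not particular to Cd68 and Spp1. The part of the leukocyte and macrophage markers in the level of Spp1 was not tested.

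**Figure D2:**
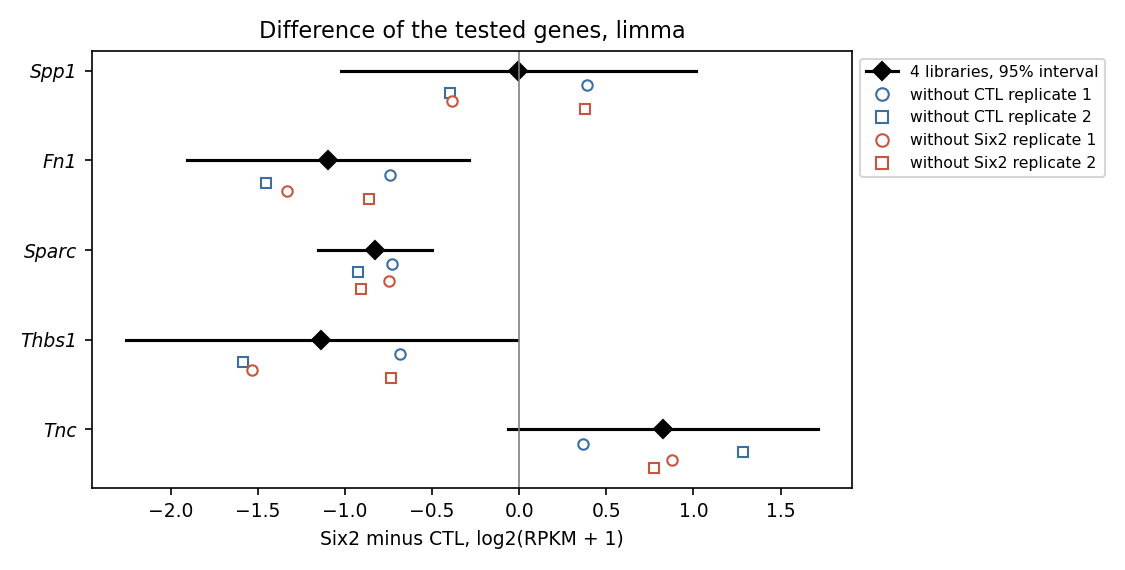
Six2 minus CTL difference on the log2(RPKM + 1) scale for the 5 tested genes, with the limma estimate from 4 libraries as a diamond, its 95% interval as a line, and open points for the estimate without each library. Fn1, Sparc and Thbs1 lie below 0 without any one library, Tnc lies above 0 but falls to 0.36 without control replicate 1, and Spp1 lies on either side of 0.

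The replicates of a group were far apart for several of these genes. On the log2(RPKM + 1) scale, replicate 2 minus replicate 1 was -0.78 in control and -0.76 in Six2-labelled libraries for Spp1. The same difference was -0.90 and -0.80 for Thbs1 and -0.71 and -0.47 for Fn1. It was -0.20 and 0.17 for Sparc, and 0.92 and 0.11 for Tnc. For Fn1, Thbs1 and Spp1 replicate 2 was thus lower in both groups, for Sparc the sign differed, and for Tnc the control libraries alone were far apart. What set the replicates apart was not tested, and the labels give replicate numbers without a batch or day.

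**Figure D3:**
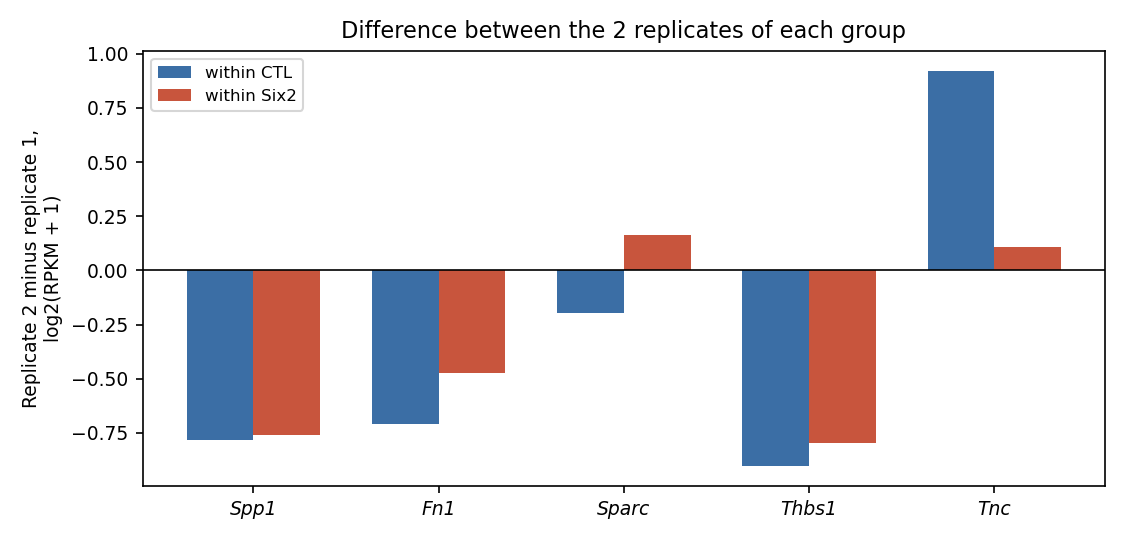
Replicate 2 minus replicate 1 within each group on the log2(RPKM + 1) scale for the 5 tested genes, blue bars for CTL and red bars for Six2. Spp1, Fn1 and Thbs1 have bars below 0 in both groups, while Sparc is near 0 and Tnc is high in CTL alone.

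Thbs2, Postn and Vcan did not pass the filter on low values and have no test. Thbs2 (chromosome 17, 14665500 to 14694235, minus strand) encodes thrombospondin 2, a close relative of thrombospondin 1 found in fibroblasts. It had 45 and 17 reads in control and 8 and 10 reads in Six2-labelled libraries, at most 0.176 RPKM. Per read of the library total the control group held 5.33 times as much (exact 95% Poisson interval 3.11 to 9.57, which covers counting error only), and 2.96 times as much without control replicate 1. Vcan (chromosome 13, 89655312 to 89742509, minus strand), which encodes the large chondroitin sulfate proteoglycan versican, had 33 and 16 reads in control and 14 and 23 reads in Six2-labelled libraries, a ratio of 2.05 (1.31 to 3.23) that was 1.36 without control replicate 1. Postn (chromosome 3, 54361109 to 54391037, plus strand) encodes periostin, a fibroblast product that binds tenascin C and collagen. It had 27 reads, the fewest that fit its RPKM, in control replicate 1. In the other 3 libraries it had 0, where 3 reads would be 0.0217 RPKM or less. All of the Postn signal came from control replicate 1, so no fold is given.

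The genes whose profile over the 4 libraries was most like a member's were taken among 6188 or 6189 tested genes with a mean of at least 10 RPKM, by the root mean square distance of log2(RPKM + 1) values centred on each gene's mean. Nearest to Fn1 was Gpsm3 (distance 0.0462), at 47.98 and 31.6 RPKM in control and 20.5 and 14.5 RPKM in Six2-labelled libraries, followed by Medag (0.0654) and Ctxn1 (0.0758). Nearest to Sparc was Cnn2 (0.0264), an actin-binding calponin gene, at 138 and 122 RPKM in control and 67.5 and 73.9 RPKM in Six2-labelled libraries, followed by Fads2 and Ppl. Nearest to Thbs1 were S100a8 (0.0638), Galnt15 and Slc15a3, to Spp1 were Zfyve1 (0.02), Mnt and Rnf183, and to Tnc were Sec11c (0.115), Cx3cl1 and Hr. With only 4 libraries such distances are descriptions.

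Other matricellular genes were described from a list of 24, of which 11 were tested. None was called. At an unadjusted p under 0.05, 3 were lower and 0 higher, beside 9.66% and 7.36% of all genes tested. The groups did not overlap for 4 lower and 1 higher, beside 25.5% and 21.9% of all genes tested. Their median difference was -0.39. Tnxb, which encodes tenascin X, was at 24.6 and 12.6 RPKM in control and 4.94 and 2.24 RPKM in Six2-labelled libraries (difference -2.09, SE 0.439, limma adjusted p = 0.158). Of the CCN genes, Ctgf was at 22.3 and 24.7 against 3.01 and 9.39 RPKM (adjusted p = 0.183) and Cyr61 at 11.4 and 27.7 against 3.16 and 10.3 RPKM (adjusted p = 0.354), both by limma. Wisp1, outside the rule for naming, was at 1.95 and 1.70 against 0.327 and 0.425 RPKM (limma adjusted p = 0.102). For the CCN genes Nov and Wisp2 the groups overlapped. The 3 genes lower at an unadjusted p under 0.05 were Tnxb, Ctgf and Wisp1. Of the tenascin genes tested, Tnxb thus lay below 0 and Tnc above, though the interval of Tnc included 0. The tenascin genes Tnr and Tnn did not pass the filter. Other thrombospondin genes are named for their family, outside the rule for naming. Thbs3 was at 6.997 ± 1.81 and 6.78 ± 0.884 RPKM (SD, n = 2 per group), and Thbs4 and Comp were under 0.04 RPKM.

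Among 19 genes of receptors for these proteins, 14 were tested. None was called, beside 0.0845% lower and 0.0282% higher over all genes tested. At an unadjusted p under 0.05, 3 were lower and 0 higher, beside 9.66% and 7.36% of all genes tested. The groups did not overlap for 6 lower and 1 higher, beside 25.5% and 21.9% of all genes tested. The median difference of the receptor genes was -0.20. The fibronectin receptor subunit gene Itga5 was at 26.7 and 28.7 RPKM in control and 26.0 and 27.2 RPKM in Six2-labelled libraries, so the groups overlapped. The receptor subunit gene Itgb1 was lower by value, at 134.7 and 131.6 against 113.7 and 111.5 RPKM (limma adjusted p = 0.28). Itga5 and Itgb1 were chosen after their values were seen, for their role. The 3 genes lower at an unadjusted p under 0.05 were Itgb1, Itgb3 and Lrp1. Itgb3, a subunit of the integrin that binds fibronectin, osteopontin and thrombospondin, was at 32.6 and 16.1 against 12.01 and 4.88 RPKM (difference -1.45, limma adjusted p = 0.28). Itgb5 was at 17.4 and 9.996 against 8.02 and 7.28 RPKM (adjusted p = 0.297 by limma). Lrp1, an endocytic receptor that clears thrombospondin 1, was at 59.2 and 57.1 against 45.3 and 41.5 RPKM (adjusted p = 0.175 by limma).

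Of 14 genes of matrix assembly, cross-linking and fibrillar adhesion, 9 were tested, with a median of -0.18. None was called, beside 0.0845% lower and 0.0282% higher over all genes tested. The groups did not overlap for 5 lower and 1 higher, beside 25.5% and 21.9% of all genes tested. At an unadjusted p under 0.05, 1 of the 9 was lower and 0 higher, beside 9.66% and 7.36% of all genes tested. Ilk, which encodes integrin-linked kinase, was at 104 ± 5.78 and 81.5 ± 0.234 RPKM, Parva, which encodes its partner parvin alpha, at 41.1 and 33.8 against 30.4 and 26.2 RPKM, and the transglutaminase gene Tgm2 at 150.1 ± 43.5 and 106 ± 11.7 RPKM in control and Six2-labelled libraries (SD, n = 2 per group). Tns2, which encodes tensin 2, was higher by value, at 26.4 ± 0.682 and 31.1 ± 1.93 RPKM. Of 30 versican and hyaluronan matrix genes, 11 were tested, with none called, beside the same 0.0845% and 0.0282%, and a median of -0.12. The groups did not overlap for 6 lower and 3 higher, beside the same 25.5% and 21.9%. At an unadjusted p under 0.05, 2 of the 11 were lower and 1 higher, beside the same 9.66% and 7.36%. The 2 lower were Adamts1 and Chst11, both under a mean of 10 RPKM and so outside the rule for naming. The chondroitin polymerizing factor gene Chpf was at 32.5 ± 3.08 and 46.6 ± 3.72 RPKM (difference 0.51, limma adjusted p = 0.176) and the chondroitin synthase gene Chsy1 at 18.9 ± 0.813 and 20.5 ± 1.03 RPKM. Chst12, a chondroitin sulfotransferase gene, was at 26.8 ± 1.08 and 24.5 ± 1.03 RPKM, and the xylosyltransferase gene Xylt2, which starts such chains, at 10.5 ± 0.308 and 9.75 ± 0.794 RPKM.

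**Figure D4:**
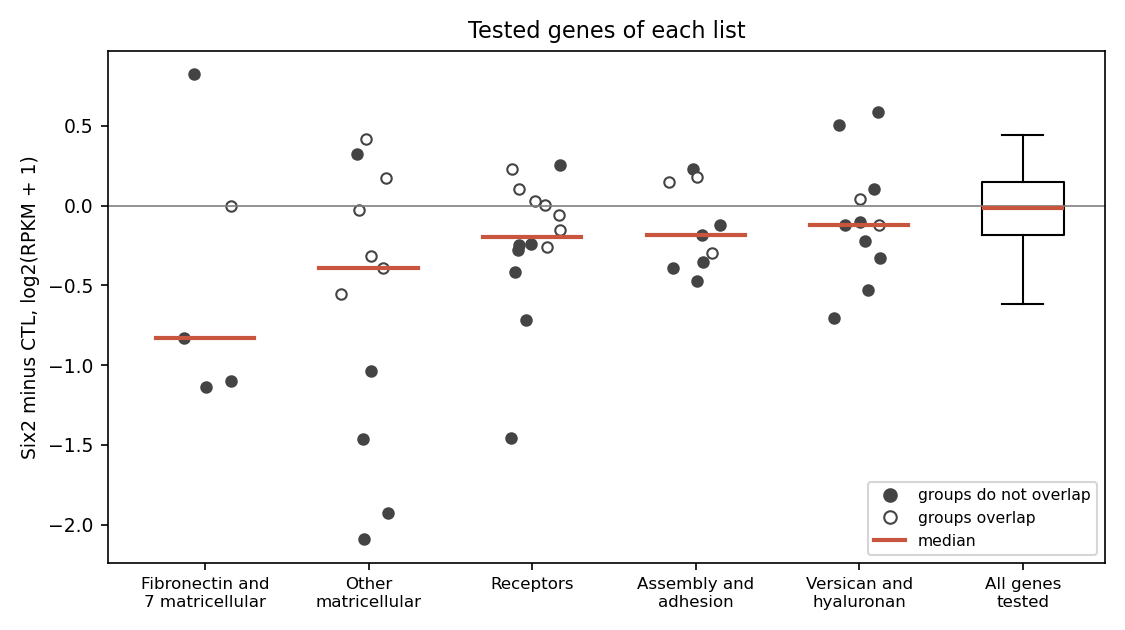
Six2 minus CTL difference on the log2(RPKM + 1) scale for the tested genes of each list, filled where the groups do not overlap, with the median as a red line; the box on the right spans the 25th to the 75th percentile of all genes tested, with whiskers to the 5th and the 95th. The median of the 5 tested members is -0.83, those of the other lists lie between -0.39 and -0.12, and that of all genes tested is -0.01.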

How the data were processed

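Polyadenylated RNA of 4T07 cells was sequenced from a TruSeq Stranded mRNA library, per the labels' protocols. The submitters' processing notes name TopHat2 2.1.1, Bowtie2, HTSeq 0.8.0, Picard 2.9.4 and SAMtools 1.5, and as builds both mm10 and GRCm38. The authors deposited RPKM values; the sources used here do not give gene models, strand setting or how shared reads were treated. Gene lengths behind the values were recovered with the reads and differ from GENCODE exon lengths (Fn1 8425 against 11685 bases), so RPKM levels depend on the authors' gene models.

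Read totals and reads were recovered from the RPKM steps; whole numbers resulted for each of the 14459 genes that were above 0 in 3 libraries or all 4, to within 2e-05 reads plus 5e-08 per read. limma 3.58.1 in R 4.3.3 fitted group on log2(RPKM + 1) with a mean trend. The fit was tested on simulated reads of independent libraries. They held no shared replicate effect and the same built-in spread for every gene, with changes placed only on genes with many reads. That test therefore does not cover the replicate differences seen here, and no result above rests on it. Alternatives were the pseudocount, the filter, the scaling, voom on recovered reads, chromosome medians, the replicate number as a block and leaving out each library. The 8 genes, the lists and the tests were chosen with earlier results of these data known. Named beyond the 8 were, per list, the called genes and otherwise up to 3 in each direction of largest difference at a mean of at least 10 RPKM with groups apart, and the 3 nearest profiles per tested gene. Some listed genes were also named outside this rule. Coordinates are from GENCODE M21. Promoters are from RefSeq, GRCm38.p6.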

Additional observations from a re-analysis of the deposited data

How the results depend on the processing

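The samples share only replicate numbers, and no label says that a number marks a shared batch, day or culture. Across the 10654 tested genes, replicate 2 minus replicate 1 in control correlated with the same difference in Six2-labelled libraries at r = 0.818, across genes, which are not independent replicates. With the replicate number as a block, 2506 of the 10654 tested genes were called lower and 2133 higher, in place of 9 and 3. Of the 5 tested members, 3 were called lower and 1 higher in that fit, where calls were common over all genes. In that blocked fit the limma adjusted p was 6.02e-05 for Fn1, 1.9e-05 for Thbs1, 0.000351 for Sparc, 0.00598 for Tnc and 0.976 for Spp1.

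Without the block, 0 of the members were called under any of the other 11 alternatives. The calls over all genes were 0 lower and 0 higher with no filter, 0 and 1 with a filter at 5 RPKM, and 4 lower with quantile normalization. Leaving out 1 library gave 9 to 50 lower and 2 to 18 higher calls. Without 1 library, the difference lay between -1.45 and -0.74 for Fn1, -0.93 and -0.73 for Sparc, -1.59 and -0.68 for Thbs1 and 0.36 and 1.29 for Tnc, with no change of sign. Under the 7 other alternatives the lowest and highest differences were -1.41 and -1.08 for Fn1, -0.84 and -0.75 for Sparc, -1.17 and -1.09 for Thbs1 and 0.83 and 0.98 for Tnc. Spp1, at -0.004, had the opposite sign with median-of-ratios factors (0.016), voom (0.0055) and chromosome medians removed (0.057), and lay between -0.40 and 0.39 without 1 library. The cause was not tested. The read ratios of Thbs2 and Vcan without each library, an alternative chosen after seeing the data, ranged from 2.96 to 7.62 and from 1.36 to 2.72. With 2 libraries a group, an exact permutation test of a single gene cannot go below 0.333 (two-sided).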
